A study of Mus musculus with 6 samples.

Results

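Th9 cells given interleukin 1β (IL-1β) were compared in vivo, after transfer into mice, with the same kind of cells after 3 days of culture. The members were the 2 libraries, of 6 in the series, whose titles name Th9 cells with IL-1β in vivo and at day 3. Each group held 1 library, and both were made from poly(A)-selected RNA. Set beside them were the 2 libraries of the arm without IL-1β at the same stages.

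The in vivo group with IL-1β held CD45.2 cells that were injected after 3 days of culture into CD45.1 mice and recovered by sorting 1 week later. Its day 3 group held cells taken directly from such a culture. All groups started from naive CD4 T cells of the spleen and nodes of wild-type C57/Bl6j mice aged 7 weeks. All were cultured on plates coated with CD3 and CD28 in RPMI medium holding TGFβ at 2 ng/ml, IL-4 at 20 ng/ml and an antibody blocking IFNγ. Both libraries of the main pair also had 10 ng/ml IL-1β in culture, and the other arm had none. RNA was taken from 300000 cells per sample. The sources used here do not give the tissue from which the transferred cells were sorted, the number of mice, or whether mice were pooled.

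Th9 cells are helper T cells named for the cytokine interleukin 9, and arise when naive CD4 T cells are activated in the presence of IL-4 and TGFβ. Activated T cells in culture divide fast, which calls for new DNA, sterols and ribosomes. Once transferred, T cells meet other cells, antigens and cytokines, and can return toward rest, become effector cells, or both. In such cells immediate early genes mark recent stimulation, while genes induced by interferons mark exposure to those cytokines.

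The values were FPKM, fragments counted per gene and divided by both its transcript length and the library's mapped fragments, as deposited by the authors with an interval for each gene. Ratios were taken in vivo over day 3 on FPKM + 1, for genes with 5 FPKM or more in 1 or both of the libraries. Higher and lower are used below of genes whose ratio was at least 2-fold with intervals that did not overlap. Such a count gives no p-value, because no group has a replicate. Read depth is unknown, and the half-width of the interval was, in the median gene, 27.0% of the FPKM in vivo and 24.8% at day 3.

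Of 8572 genes compared with IL-1β, 1032 were higher in vivo (12.0%) and 503 were lower (5.87%). Without IL-1β, 173 of 8126 genes were higher (2.13%) and 54 were lower (0.665%). The median log2 ratio over all compared genes was close to 0 in both arms, 0.04 with IL-1β and -0.03 without. The range from the 25th to the 75th percentile spanned 1.05 log2 units with IL-1β and 0.43 without. Between in vivo and day 3, 79.4% of compared genes lay within 2-fold of each other with IL-1β and 95.8% without. The difference between the arms has no test.

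Most genes counted as higher were low at day 3. Of the 1032, 364 stood below 1 FPKM there, 351 between 1 and 5 FPKM, and 317 at 5 FPKM or more. Genes under 5 FPKM at day 3 could enter the comparison only through their in vivo value, which favours a count as higher. Of genes at 5 FPKM or more at day 3, 317 of 7313 were higher. Of the 503 lower genes, 400 still stood at 5 FPKM or more in vivo. Just inside the 2-fold limit lay Rfx1 (log2 ratio 1.00), Tnks1bp1 and Fosl2, and just outside it Psmb1, Nfatc1 and Ino80d, at 44.2 FPKM in vivo and 21.6 at day 3 for Nfatc1. When the libraries were set to equal sums without the genes of the other-cell lists described next, which raised all in vivo values by 0.25 log2 units, 1614 genes were higher (18.1% of those then compared) and 247 lower (2.77%). Higher genes then made up 86.7% of all counted genes, against 67.2% with the values as deposited.

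**Figure D1:**
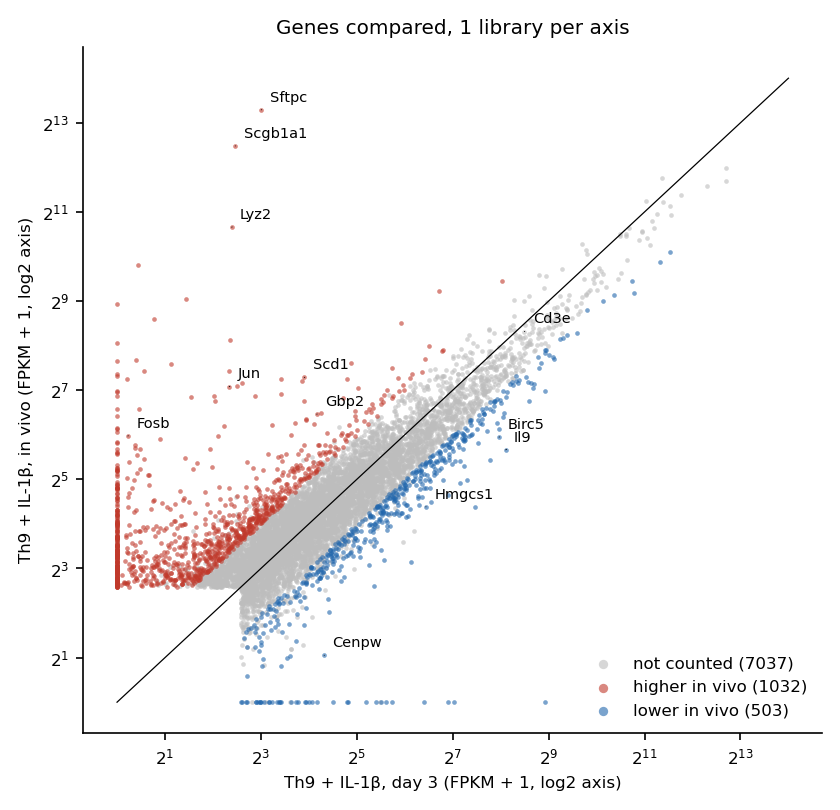
Each point is 1 of the 8572 genes compared. The vertical axis gives FPKM + 1 in vivo and the horizontal axis FPKM + 1 at day 3 for Th9 cells with IL-1β, both on log2 axes, with the line of equal values. Red points (1032) were counted as higher in vivo, blue points (503) as lower, and grey points were not counted. The genes farthest above the line are surfactant and secretory genes of the lung.

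The in vivo library held transcripts of cells other than T cells. The highest ratios of genes above 0 FPKM in both libraries were those of Sftpc, a surfactant gene of alveolar epithelium, at 10010.5 FPKM in vivo and 7.04 at day 3 (log2 ratio 10.28), and of Scgb1a1, the secretoglobin of airway club cells, at 5709.9 and 4.52 FPKM (10.01). The surfactant genes Sftpb and Sftpa1, Cxcl15, Slc34a2, Wfdc2, Cyp2f2 and Muc1, all known from lung epithelium, were also among the 15 highest. So were Lyz2, the lysozyme gene of macrophages and neutrophils, Hba-a1 and Beta-s, globin genes, Gpx3, a secreted peroxidase gene, and Sparc, a matrix protein gene. Fosb was the sole immediate early gene among them. In the arm without IL-1β Sftpc stood at 3512 FPKM in vivo and 4.60 at day 3, so both transferred samples carried this RNA.

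All 22 compared markers of airway and alveolar epithelium were higher in vivo, as were all 21 of stroma and endothelium and 21 of 23 of macrophages, neutrophils and MHC class II. Over all genes 12.0% were higher. At day 3, 1 epithelial, 2 stromal and 8 macrophage, neutrophil and MHC class II markers reached 5 FPKM. The rest were compared only through their in vivo value. Epithelial markers made up 5.06% of the summed FPKM in vivo and 0.00564% at day 3, and without IL-1β 1.97% and 0.00642%. Macrophage, neutrophil and MHC class II markers made up 0.886% and 0.0619% with IL-1β, and stromal and endothelial markers 0.228% and 0.00591%. Together 124 markers of 7 other-cell lists took 6.42% of the summed FPKM in vivo and 0.106% at day 3 with IL-1β, and 2.57% and 0.0926% without. The in vivo samples with and without IL-1β thus both stood above their day 3 samples, and the one with IL-1β had the larger share. At day 3 with IL-1β 53 of the 124 were listed at 0, among them Sftpd, Nkx2-1, Csf1r and Col1a2, and in vivo 12 were.

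Over all genes 12.0% were higher, the share to set beside each count in this paragraph. Red cell and platelet markers were higher too, 4 of 5 compared with a median log2 ratio of 3.28. They took 0.203% of the summed FPKM in vivo and 0.00582% at day 3. They included Hba-a2, listed at 0 at day 3, and Ppbp, a platelet chemokine gene, at 17.9 FPKM in vivo and 2.07 at day 3. Of B and plasma cell markers, 2 of 5 compared were higher, Cd79a and Igj. Among NK and CD8 cell markers 0 of 4 compared were counted, with 3 of the 4 ratios above 0 and a median of 0.44. Of these, Xcl1, a chemokine gene that T cells also express, stood at 56.2 FPKM in vivo and 22.1 at day 3 and was counted with the length trend described below removed, while Cd8b1, a chain of the CD8 coreceptor, stood at 8.12 and 18.5 FPKM. Of mast cell and basophil markers, 2 of 4 were higher, Hdc and Gata2, with the mast cell proteases Mcpt1, Mcpt2 and Mcpt4 listed at 0 in both libraries. At day 3, 1 red cell and platelet, 3 B and plasma cell and 1 mast cell marker reached 5 FPKM, and 0 of these were higher. In bulk RNA, more cells of a type and more RNA per cell cannot be told apart. Any gene below that T cells share with these cells could carry their RNA, and this part of each result was not tested.

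**Figure D2:**
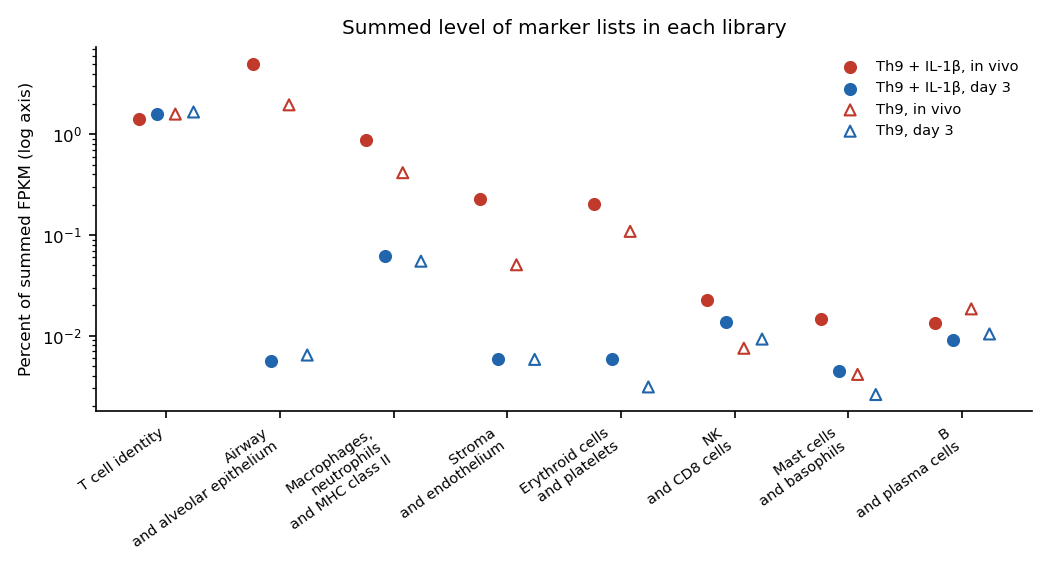
The vertical axis gives the percent of the summed FPKM of each library taken by a marker list, on a log axis. Filled circles are Th9 cells with IL-1β and open triangles those without, red in vivo and blue at day 3. T cell identity genes took 1.44% in vivo and 1.59% at day 3 with IL-1β, while epithelial markers took 5.06% and 0.00564%.

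T cell identity genes fitted the label in every library. Of 17 genes such as Cd3e, Cd4, Lck and Thy1, 0 were counted in either direction, and the lowest log2 ratio was -0.91, for the adhesion gene Cd2. Cd4, the coreceptor of helper T cells, stood at 172 FPKM in vivo and 189 at day 3 with IL-1β, and at 223 and 231 without. The list's median log2 ratio was -0.14 and became 0.11 under equal sums, so no direction is given for it.

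The ratio depended on transcript length with IL-1β. The Spearman correlation of the log2 ratio with the length of the longest transcript was 0.33 across 8502 genes with IL-1β and 0.03 across 8057 genes without, where genes are not independent replicates and share both libraries. When genes were split by length into 5 bins, the medians with IL-1β were -0.40, -0.13, -0.01, 0.19 and 0.48 log2 units, shortest first, and without IL-1β it stayed between -0.06 and 0.01. The shortest bin held 201 lower and 167 higher genes, and the longest 22 lower and 320 higher ones.

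This relation moved with 1 library, that of day 3 with IL-1β. Set against the day 3 library without IL-1β, its ratio correlated with length at -0.54, whereas the in vivo library with IL-1β set against that without gave -0.01. The in vivo library with IL-1β set against the day 3 library without it gave 0.02. That last comparison also differs in IL-1β and was chosen after seeing the data. It gave 752 higher genes (8.73%) and 337 lower genes (3.91%). Of these, 629 and 183 were also counted against the day 3 library with IL-1β. With the length trend removed from the main pair, 904 genes were higher (10.7%) and 404 lower (4.78%), of which 799 and 302 were among those counted before. Values from both of these settings are given beside many of the gene groups below.

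**Figure D3:**
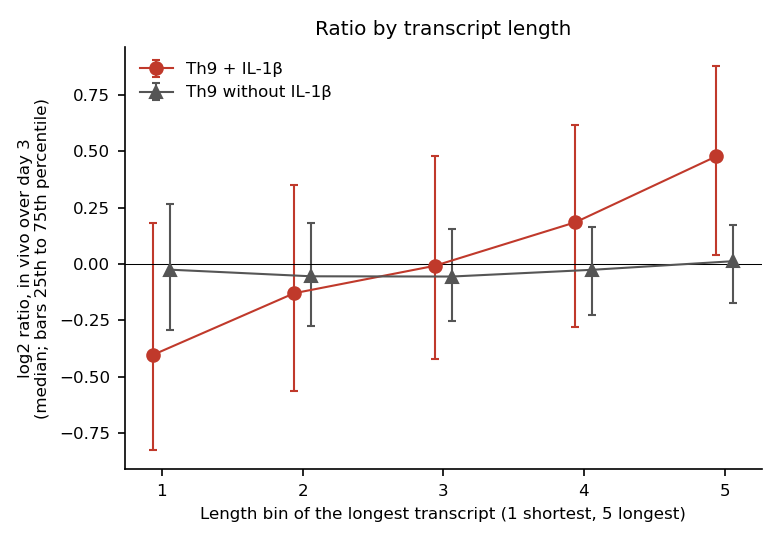
The vertical axis gives the log2 ratio of FPKM + 1, in vivo over day 3, and the horizontal axis 5 bins of genes by the length of the longest transcript, shortest at 1. Points are medians and bars run from the 25th to the 75th percentile over genes. The medians with IL-1β (red circles) climb from -0.40 in bin 1 to 0.48 in bin 5, and those without IL-1β (grey triangles) stay near 0.

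The cytokine that names Th9 cells was lower in vivo. Il9, on chr13:56580638-56583607 of mm9, stood at 49.6 FPKM in vivo and 274 at day 3 with IL-1β (log2 ratio -2.44), and at 59.5 and 39.8 FPKM without IL-1β, where it was not counted. The day 3 library with IL-1β was thus the 1 library in which Il9 was far above the rest, and the 2 in vivo libraries were close to each other. The deposited interval of Il9 ran from 17.7 to 48.0 FPKM in vivo and from 149 to 227 at day 3, so both values lay above their own upper bound. With the length trend removed the log2 ratio was -1.74 and still counted. The limma fit over both arms gave Il9 a log2 ratio of -0.94 with an adjusted p of 0.581.

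Other type 2 cytokines were not counted with the values as deposited. Il4 stood at 9.88 FPKM in vivo and 23.03 at day 3, with overlapping intervals, and Il24 at 154 and 303 FPKM. Il13, which acts on epithelium and mucus, stood at 163 and 138 FPKM, and Il5, the eosinophil growth factor, at 39.0 and 19.1. Il10, an inhibitory cytokine, stood at 23.1 and 13.7 FPKM. Il9 was thus the 1 member counted of 11, and the list's median log2 ratio was 0.24, beside 0.04 over all genes. Once the length trend was removed, Il5 and Il3, a growth factor of blood cells, were higher as well, and the median was 0.84. With the day 3 library without IL-1β as the comparison, 4 of the 11 were higher, 0 lower and the median 1.12.

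Transcription factors of Th9 and Th2 cells split. Higher in vivo were Irf1, an interferon-induced factor, at 84.2 FPKM against 30.04 at day 3 (log2 ratio 1.46), Etv5, an Ets family factor, at 14.96 against 1.17 (2.88), Maf at 9.77 against 3.35 (1.31) and Notch1, a receptor that acts in the nucleus once cut, at 30.3 against 12.9 (1.17). Sfpi1, the gene of PU.1, which promotes Il9 in T cells and also drives macrophage and B cell development, stood at 14.99 FPKM in vivo and was listed at 0 at day 3, and without IL-1β at 10.7 and 0.488. Its level moved with the macrophage markers, which took 0.886% of the summed FPKM in vivo and 0.0619% at day 3, and their part in it was not tested. Batf3 was lower, at 11.7 FPKM in vivo against 40.3 at day 3 (-1.70), and missed the rule with the length trend removed and under equal sums. Factors that define the culture were not counted: Irf4 stood at 85.8 and 94.7 FPKM, Gata3 at 125 and 204, Batf at 108 and 170, and Stat6 at 58.3 and 30.1. In all, 5 of 18 were higher (27.8%, against 12.0% of all genes) and 1 was lower. Of the 15 at 5 FPKM or more at day 3, 2 were higher. After removal of the length trend Maf and Notch1 missed the rule, Id3 was higher, and Rbpj, the nuclear partner of Notch, was lower in place of Batf3.

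**Figure D4:**
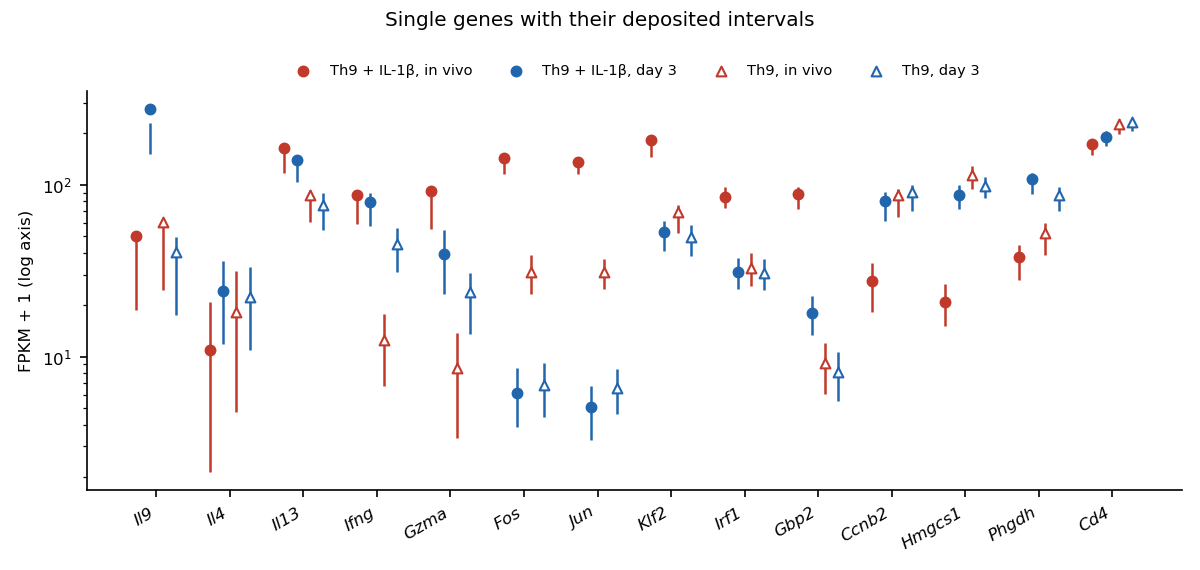
The vertical axis gives FPKM + 1 on a log axis for 14 genes in 4 libraries, with vertical lines for the deposited intervals. Filled circles are Th9 cells with IL-1β and open triangles those without, red in vivo and blue at day 3. Il9 is highest at day 3 with IL-1β (274 FPKM), Fos and Jun are high in vivo in both arms, and Gbp2, Ccnb2 and Hmgcs1 stand apart in the in vivo library with IL-1β. A point above its line is a deposited value above its own upper bound.

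Immediate early and activation genes were higher in vivo. Of 30 compared, 19 were higher, 63.3% against 12.0% of all genes, and all 30 ratios were above 0 with a median log2 value of 1.31. Of the 26 at 5 FPKM or more at day 3, 15 were higher. Without IL-1β 4 of 28 were higher (14.3%, against 2.13% of all genes), with a median of 0.16. Fos, a subunit of the factor AP-1, stood at 142 FPKM in vivo and 5.13 at day 3 with IL-1β (log2 ratio 4.55), and at 30.3 and 5.84 without. Jun, its partner, stood at 134 and 4.06 FPKM with IL-1β (4.74), and at 29.9 and 5.55 without. Fosb stood at 61.8 and 0.170 FPKM with IL-1β (5.75), and at 9.61 and 0.618 without. These 3 AP-1 genes were thus higher in vivo in both arms, and their in vivo values were larger with IL-1β than without.

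Feedback genes of the same list were also higher. Dusp1, which switches off MAP kinases, stood at 120 FPKM in vivo against 9.75 at day 3 (log2 ratio 3.497), and Ppp1r15a, a stress-induced phosphatase subunit, at 107 against 13.9 (2.85). Zfp36, which destabilises cytokine mRNA, stood at 364 against 59.7 (2.59), and Egr1 at 112 against 25.3 (2.10). Genes tied to signals from the T cell receptor were part of this. Nr4a1 stood at 252 FPKM in vivo against 90.3 at day 3 (1.47), Nr4a3 at 37.3 against 6.12 (2.43) and Cd69, a surface marker of recent activation, at 53.3 against 17.5 (1.55). Egr2, at 19.7 and 16.2 FPKM, and Egr3, at 31.3 and 17.95, were not counted. Of the 30, 18 were higher when set against the day 3 library without IL-1β. Immediate early genes are known to respond to tissue handling as well as to stimulation. Recovery from mice applied to the in vivo cells alone, so handling and stimulation cannot be told apart here. Markers of the other-cell lists took 6.42% of the summed FPKM in vivo with IL-1β and 2.57% without. The part of such cells in these values was not tested.

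Genes of naive, resting and memory T cells were higher as well. Of 20 compared, 9 were higher (45.0%, against 12.0% of all genes) and 0 lower, and the median was 1.01 log2 units. Of the 17 at 5 FPKM or more at day 3, 6 were higher. Without IL-1β 2 were higher, with a median of 0.13, where 2.13% of all genes were. Klf2, a factor of resting T cells that drives exit from tissues, stood at 181 FPKM in vivo and 52.2 at day 3 with IL-1β (log2 ratio 1.77), and at 68.0 and 48.9 without. S1pr1, the exit receptor it controls, stood at 78.9 and 34.3 FPKM (1.18), and Tcf7, a factor of naive and memory cells, at 238 and 111 (1.10). Txnip, which limits glucose uptake, stood at 132 and 31.7 FPKM (2.02), Tob1, a brake on proliferation, at 33.2 and 9.89 (1.65), and Klf3 at 26.9 and 4.02 (2.47). Higher in both arms were Ly6c1, at 116 and 3.07 FPKM with IL-1β (4.84), and Klf4, at 25.7 and 1.49 (3.42). Both are also known from endothelium or myeloid cells, whose markers took 0.228% and 0.886% of the summed FPKM in this in vivo library. The receptors Ccr7 (175 and 114 FPKM) and Il7r (32.9 and 20.5), which serve lymph node entry and survival, did not meet the rule. Against the day 3 library without IL-1β 7 of the 20 were higher, with a median of 0.70.

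Cytotoxic effector genes were higher with IL-1β. The 7 higher of 14 compared gave a median of 1.01 log2 units, with 0 lower, and 12.0% of all genes were higher. Of the 12 at 5 FPKM or more at day 3, 5 were higher. Without IL-1β 0 were counted, where 2.13% of all genes were. Of the 14, 10 were higher with the length trend removed and the median was 1.53, and against the other day 3 library 8 were. Gzma, a granzyme gene, stood at 90.5 FPKM in vivo and 38.5 at day 3 with IL-1β (log2 ratio 1.21), and at 7.54 and 22.9 without. Gzmc stood at 65.3 and 24.8 FPKM with IL-1β (1.36), and at 11.9 and 25.7 without. For these granzymes the in vivo library was the highest of 4 with IL-1β and the lowest without it. Prf1, the perforin gene, stood at 7.50 and 0.654 FPKM (2.36), and the chemokine genes Ccl3 at 78.9 and 14.4 (2.38), Ccl4 at 64.4 and 19.8 (1.65) and Ccl5 at 40.9 and 5.50 (2.69). Gzmd completed the 7. Gzmb, the most abundant granzyme, stood at 771 and 443 FPKM and did not reach 2-fold. NK and CD8 markers, of which 0 of 4 were counted, took 0.0228% of the summed FPKM in vivo and 0.0136% at day 3. Macrophage and neutrophil markers, from cells known to express Ccl3 and Ccl4, took 0.886% and 0.0619%. The part of either in these results was not tested.

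Genes of other helper cell states were higher in small numbers, 3 of 14 for Th1 (21.4%), 2 of 5 for Th17, 3 of 13 for regulatory T cells (23.1%) and 2 of 10 for follicular helper cells, against 12.0% of all genes. Among members at 5 FPKM or more at day 3, the counts were 1 of 10, 2 of 5, 0 of 10 and 0 of 7 in the same order. Of all genes at that level 317 of 7313 were higher. The Th1 list had 12 of 14 ratios above 0 and a median of 0.60. Ifng, the Th1 cytokine, stood at 86.3 FPKM in vivo and 78.3 at day 3 with IL-1β, and was lower in vivo without it, at 11.4 against 44.0 FPKM. The 3 higher Th1 genes were Il18r1, Eomes and Ifngr1, and Tbx21 stood at 6.47 and 2.84 FPKM without meeting the rule. Il17a stood at 15.4 and 11.9 FPKM with IL-1β, and without it was lower in vivo, at 1.48 against 8.55. The sole Th17 list members counted, Tmem176a and Tmem176b, are also known from myeloid cells. Foxp3, the factor of regulatory T cells, stood at 13.3 and 7.61 FPKM and was not counted, while Nrp1, Entpd1 and Nt5e of that list were higher. Capg, an actin-capping gene, was lower at 146 and 320 FPKM, and missed the rule with the length trend removed and against the other day 3 library. Bcl6, a repressor of follicular helper and memory cells, stood at 8.03 and 0.393 FPKM (log2 ratio 2.70), and Il6st, a shared receptor chain, at 15.5 and 3.93 (1.74). With the length trend removed 6 Th1 genes were higher.

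Of genes of NF-κB signalling 4 of 20 were higher (20.0%), and of TGFβ signalling 5 of 13 (38.5%), against 12.0% of all genes. Among those at 5 FPKM or more at day 3, 3 of 19 and 4 of 12 were higher. Tnfaip3, an NF-κB target that ends its signal, stood at 88.7 FPKM in vivo against 17.9 at day 3 (log2 ratio 2.24), and Rel, an NF-κB subunit, at 11.3 against 3.31 (1.51). Nfkbiz and Icam1 were the other higher members of 20. Tgfbr2, the receptor that binds TGFβ, stood at 46.5 against 12.8 FPKM (1.79) and its inhibitor Smad7 at 30.8 against 9.44 (1.61), and Ltbp4, Ski and Skil were higher as well. Without IL-1β 0 of these were counted. After the length trend was removed, 6 of the NF-κB list and 3 of the TGFβ list were higher, and Ski and Skil missed the rule. Socs3 was higher, at 89.7 FPKM against 35.8 (1.30). Socs2, an inhibitor induced by STAT5, was lower at 41.2 against 90.02 (-1.11), but not against the other day 3 library. Of 11 receptors of the IL-2 family and 8 of IL-1 and alarmin signalling, 0 and 1 were counted, the latter list through Il18r1. Integrin genes Itga6, Itga4 and Itgb1 were the 3 of 18 homing genes that were higher (16.7%), a share near that of all genes.

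Surface receptors of activated T cells mostly did not meet the rule. Of 21 costimulators and members of the TNF superfamily, 2 were higher (9.52%, against 12.0% of all genes). They were Tnfrsf8, the gene of CD30, at 22.5 FPKM in vivo against 6.62 at day 3 (log2 ratio 1.62), and Cd27 at 112 against 52.4 (1.08). Icos stood at 70.7 and 123 FPKM. Removal of the length trend left 20 compared, of which 4 were higher. Of 8 inhibitory receptors 2 were higher (25%), Havcr2, the gene of TIM-3, at 7.11 against 2.88 (1.06), and Entpd1, which breaks down extracellular ATP. Of the 6 inhibitory receptors at 5 FPKM or more at day 3, 0 were higher. The checkpoint genes Pdcd1 (16.5 and 11.2 FPKM), Ctla4 (54.3 and 92.8) and Lag3 (35.1 and 54.5) were not counted, and neither was Il2ra, the IL-2 receptor gene, at 276 and 390 FPKM.

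Genes induced by interferons were higher with IL-1β. Of 15 interferon-inducible GTPases compared, 12 were higher (80.0%, against 12.0% of all genes), all 15 ratios were above 0 and the median was 1.62 log2 units. Of the 8 at 5 FPKM or more at day 3, 5 were higher, with a median of 1.19. Without IL-1β 0 of 9 were counted, where 2.13% of all genes were higher, and the median was -0.06. These proteins attack the vacuoles of pathogens inside cells. Gbp2 stood at 87.1 FPKM in vivo and 16.9 at day 3 with IL-1β (log2 ratio 2.30), with intervals of 70.8 to 95.4 and 12.3 to 21.5, and at 8.13 and 7.11 FPKM without. Gbp9 stood at 14.2 and 2.12 FPKM (2.28), Iigp1 at 22.4 and 4.11 (2.20), Gbp7 at 20.6 and 3.75 (2.19), Tgtp2 at 45.0 and 9.62 (2.11) and Gbp6 at 17.6 and 4.79 (1.69). In each of these 6 the in vivo library with IL-1β was the highest of the 4. Igtp (123 and 72.5 FPKM), Ifi47 (101 and 57.2) and Gbp8 (15.9 and 8.05) did not meet the rule.

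The list of antiviral genes gave a similar picture. The count was 11 higher of 21 compared (52.4%, against 12.0% of all genes), with 0 lower and a median of 1.35. Without IL-1β it was 1 higher of 14 (7.14%, against 2.13% of all genes), with a median of 0.07. With IL-1β, 12 of the list stood at 5 FPKM or more at day 3. Of those, 3 were higher, with a median of 0.88. Rtp4 stood at 20.97 FPKM in vivo and 1.33 at day 3 (log2 ratio 3.24), Ifit1, which binds viral RNA, at 9.35 and 0.497 (2.79), and Irf7, the factor that amplifies type I interferon, at 31.5 and 6.45 (2.13). Bst2 (69.5 and 75.01 FPKM), Ifi35 (31.7 and 41.6) and Ifi27l2a (199 and 228) of the same list were not counted. Of 15 genes of antigen processing and MHC class I, 1 was higher, Nlrc5, the activator of MHC class I genes, at 27.0 and 11.01 FPKM (1.22), which missed the rule with the length trend removed. Set against the day 3 library without IL-1β, 14 of 15 GTPases and 10 of 21 antiviral genes were higher, and with the length trend removed 11 and 14 were. Macrophages and endothelium also use these genes, and with their markers at 0.886% and 0.228% of the summed FPKM in vivo their part was not tested.

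Promoters of these GTPases are shown because the members moved together. The motif GAAANNGAA, the core of the interferon-stimulated response element, was found on either strand in 8 of 10 windows of list members (80.0%) and in 8.56% of all 32851 windows. The windows ran from 250 bases before to 50 after the start in RefSeq (GRCm38.p6), and 10 of 16 members could be matched. The motif TTCNNNGAA, bound by STAT factors, was found in 5 of 10 (50%) and in 8.30% of all windows. For antiviral genes GAAANNGAA was found in 11 of 25 windows (44.0%). A match of letters is a description and not a measured binding site. Capitals mark the GAAANNGAA match, read here on the opposite strand. The stretch of Gbp2 is chr3:142620569-142620648 and that of Gbp7 chr3:142530248-142530327, both on the plus strand and upstream of the start.
Gbp2: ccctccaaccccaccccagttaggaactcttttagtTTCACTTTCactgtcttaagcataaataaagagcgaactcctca
Gbp7: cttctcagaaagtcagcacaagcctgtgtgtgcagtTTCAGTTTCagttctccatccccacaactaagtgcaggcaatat

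Cell division genes were lower in vivo with IL-1β. Of 41 mitosis genes compared, 22 were lower and 0 higher, 53.7% against 5.87% of all genes, and all 41 ratios were below 0 with a median log2 ratio of -1.04. Without IL-1β 0 were counted and the median was -0.02. Birc5, the survivin gene of the chromosomal passenger complex, stood at 60.7 FPKM in vivo and 249 at day 3 with IL-1β (log2 ratio -2.02), and at 159 and 157 without. Its partner Cdca8 stood at 27.0 and 83.8 FPKM (-1.60), and at 76.3 and 93.1 without. Ube2c, which ends mitosis, stood at 139 and 415 FPKM (-1.57), and at 370 and 357 without. Ccnb2, a mitotic cyclin, stood at 26.5 and 79.1 FPKM (-1.54), and at 86.0 and 89.5 without. In all 4 the in vivo library with IL-1β was the lowest of the 4 libraries. Nuf2 (10.99 and 34.7 FPKM, -1.57) and Ccna2 (42.5 and 121, -1.48) were also lower. Mki67, the proliferation marker Ki-67, stood at 25.3 FPKM in vivo and 37.8 at day 3 and did not reach 2-fold, and stood at 73.7 and 66.6 FPKM without IL-1β.

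The count of lower mitosis genes differed with the setting. Against the day 3 library without IL-1β, 35 of 42 were lower, with a median of -1.31, where 3.91% of all genes were lower. With the length trend removed 23 were lower, and under equal sums 12 were (median -0.81). Over all genes 4.78% and 2.77% were lower in these settings.

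Genes of DNA replication were lower to a smaller extent. In all 13 of 35 compared were lower (37.1%, against 5.87% of all genes) and 0 higher, with a median of -0.87. Without IL-1β 0 were counted, where 0.665% of all genes were lower, and the median was -0.16. Tk1, the thymidine kinase, stood at 30.8 FPKM in vivo and 110 at day 3 with IL-1β (log2 ratio -1.80), and at 99.7 and 88.5 without. Gins1, of the replicative helicase, stood at 8.89 and 27.3 FPKM (-1.52), the licensing factor Cdc6 at 6.16 and 18.2 (-1.42), Dut at 42.4 and 109 (-1.35), Cdc45 at 24.5 and 61.2 (-1.28) and Fen1 at 23.4 and 57.2 (-1.25). Rfc4 was listed at 0 in vivo and stood at 44.3 FPKM at day 3. The 6 helicase genes Mcm2 to Mcm7 had log2 ratios between -0.73 and -0.53 and were not counted. Under equal sums 6 of the 35 were lower, and against the day 3 library without IL-1β 15 were. Of 33 replication-dependent histone genes, near-identical copies whose mRNA mostly lacks a poly(A) tail, 2 were higher and 3 lower. Their median of -0.94 became 0.56 with the length trend removed and 0.04 against the other day 3 library, so no direction is given for them.

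Letters of known cell cycle elements were counted in promoters of mitosis genes, and stretches of Ube2c and Ccnb2, with values above, are shown. A match of letters is a description and does not show that the known element lies there. The motif TTTGAA, the cell cycle homology region, was found in 29 of 38 windows of this list (76.3%) and in 17.9% of all windows. CCAAT, the box bound by NF-Y, was found in 30 of 38 (78.9%) and in 37.4% of all. In windows of the mitosis genes counted as lower, TTTGAA was found in 15 of 22 (68.2%) and CCAAT in 16 of 22 (72.7%). Of the list's 42 members 36 were matched. For replication genes the E2F motifs TTTGGCGC and TTTCCCGC were each found in 5 of 34 windows (14.7%), against 0.514% and 1.07% of all. In windows of the replication genes counted as lower, TTTGGCGC was found in 0 of 12 and TTTCCCGC in 1 of 12 (8.33%). Capitals mark TTTGAA, read on the opposite strand in Ube2c. Only bases before the start are printed, so a match after it would not appear. The stretch of Ube2c is chr2:164769863-164769928 on the plus strand, and that of Ccnb2 chr9:70421679-70421758 on the minus strand, both GRCm38.p6 and upstream of the start.
Ube2c: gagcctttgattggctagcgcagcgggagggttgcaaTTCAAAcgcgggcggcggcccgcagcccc
Ccnb2: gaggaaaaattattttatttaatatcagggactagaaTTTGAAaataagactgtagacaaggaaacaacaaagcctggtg

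Sterol synthesis genes were lower in vivo with IL-1β. Of 25 compared, 10 were lower (40%, against 5.87% of all genes) and 0 higher, and the median was -0.78 log2 units. Without IL-1β 0 were counted, where 0.665% of all genes were lower, and the median was 0.09. Hmgcs1, which makes the precursor of mevalonate, stood at 19.9 FPKM in vivo and 85.8 at day 3 with IL-1β (log2 ratio -2.06), and at 112 and 97.5 without. Fdps, which makes farnesyl diphosphate, stood at 8.15 and 46.4 FPKM (-2.37), and at 49.7 and 55.9 without. In these genes the in vivo library with IL-1β lay below all 3 others. Sc4mol (22.8 and 76.9 FPKM, -1.71), Pmvk (17.99 and 60.6, -1.70), Idi1 (17.8 and 59.6, -1.68), Cyp51 (21.1 and 61.9, -1.51) and Fdft1 (13.1 and 39.3, -1.51) were lower too, as was Mvd.

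Regulators of the pathway were not counted. Srebf2, the factor that drives them, stood at 68.6 FPKM in vivo and 59.3 at day 3. Insig1, which holds that factor back and is itself its target, stood at 22.01 and 33.9 FPKM, a log2 ratio of -0.60 that lies near the list's median. Against the day 3 library without IL-1β 16 of the 25 were lower, with a median of -1.17, and with the length trend removed 10 were. Over all genes 3.91% and 4.78% were lower in these settings. Under equal sums 7 were lower and 1 higher. Among 12 genes of fatty acid synthesis 1 was counted, Scd1, a desaturase, which was higher at 155 FPKM in vivo against 13.99 at day 3 (log2 ratio 3.38), and at 55.2 against 23.2 without IL-1β. Lung epithelium is known to express Scd1, and its part was not tested.

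The letters TCACNCCAC, a form of the sterol regulatory element, were found in 1 of 21 windows of this list (4.76%), that of Hmgcs1. They were found in 1.24% of all windows, and 18 of 26 members were matched. Hmgcs1 had the second lowest ratio of the list. Its stretch is shown because no other window of the list held the match. It is chr13:119690178-119690257 (GRCm38.p6, plus strand), with the match in capitals.
Hmgcs1: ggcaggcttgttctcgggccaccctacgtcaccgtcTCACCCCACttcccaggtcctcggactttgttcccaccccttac

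**Figure D5:**
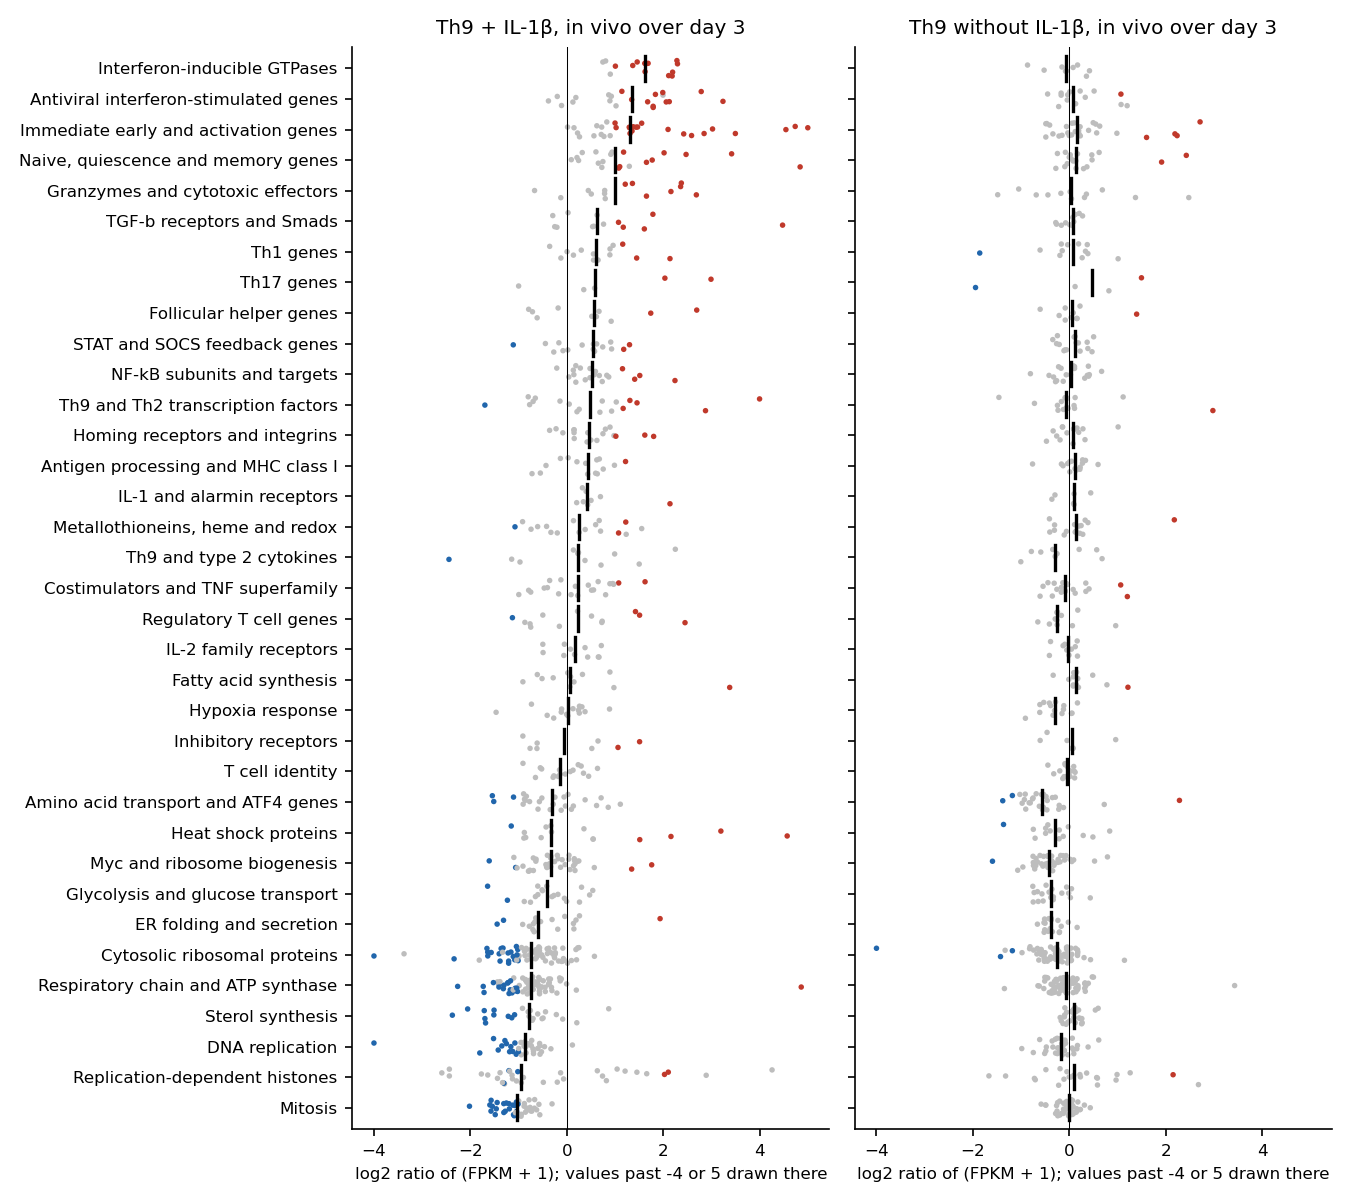
The horizontal axis gives the log2 ratio of FPKM + 1, in vivo over day 3, for the compared members of 35 lists of T cell genes and pathways, with IL-1β on the left and without it on the right. Points are genes, red where counted as higher in vivo, blue where lower and grey otherwise, and the black bar is the list's median. Interferon-inducible GTPases (median 1.62) stand at the top and mitosis genes (-1.04) at the bottom with IL-1β, and without it these medians are -0.06 and -0.02.

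Ribosomal and respiratory genes were lower in part, and here the day 3 library mattered. Of 75 cytosolic ribosomal protein genes 21 were lower and 0 higher (median log2 ratio -0.73), and of 77 genes of the respiratory chain and ATP synthase 19 were lower and 1 higher (-0.75). The shares of lower genes were thus 28% and 24.7%, against 5.87% of all genes. Both lists hold short transcripts. With the length trend removed 8 and 6 were lower, with medians of -0.30 and -0.28, where 4.78% of all genes were lower. Against the day 3 library without IL-1β 7 of 73 and 1 of 77 were lower, with medians of -0.27 and -0.33, where 3.91% of all genes were. Both counts were thus smaller in either setting, unlike those of mitosis and sterol synthesis genes. Ribosomal protein genes have many processed pseudogenes, so the division of fragments among copies is uncertain.

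Growth and stress genes moved one by one. Over all genes 12.0% were higher and 5.87% lower. Myc stood at 82.5 FPKM in vivo and 69.2 at day 3, while 2 antagonists that bind its partner were higher, Mxd4 at 25.5 against 6.81 (log2 ratio 1.76) and Mxd1 at 28.8 against 10.7 (1.35). Of 41 genes of this list, 2 more were lower, Mrto4 and Npm1. In glycolysis 2 of 19 were lower, Pgk1 at 83.8 against 264 FPKM (-1.64) and Aldoc, and the list's median of -0.42 was near that without IL-1β, -0.38. Of 15 hypoxia genes 0 were counted. Asns at 50.03 against 148 FPKM (-1.54), Phgdh at 36.9 against 107 (-1.51) and Psat1 at 85.5 against 185 (-1.10), enzymes that make asparagine and serine under the factor ATF4, were lower. That list had medians of -0.31 with IL-1β and -0.58 without. Of 15 heat shock genes, Hspb1, Hspa1b, Hspa1a and Bag3 were higher and the mitochondrial chaperonin gene Hspe1 was lower. The median of the heat shock list was -0.32, with 8 of 15 ratios below 0. Of its 11 members at 5 FPKM or more at day 3, 0 were higher. Of 17 redox and metal genes, the antioxidant genes Srxn1 (6.09 and 2.04 FPKM) and Gclc (32.4 and 14.8) were higher and Txn1, the thioredoxin gene, was lower (284 and 599.7 FPKM). In the settings without the length trend and with the other day 3 library, 5 and 6 of these were higher and 0 lower, so Txn1 missed the rule in both. In the secretory pathway Dnajb9 was higher, at 16.8 against 3.64 FPKM (1.94), and Sdf2l1 and Manf were lower. Npm1, Mrto4, Hspe1, Psat1 and Sdf2l1 missed the rule with the length trend removed. Against the other day 3 library 5 genes of the ATF4 list were lower and 2 higher.

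The 15 lowest ratios of genes above 0 FPKM in both libraries included Il9, Fdps and the respiratory gene Uqcrb, at 24.0 FPKM in vivo and 119 at day 3. Cenpw, a centromere gene, stood at 1.07 FPKM in vivo and 19.0 at day 3 with IL-1β (log2 ratio -3.27), and at 10.3 and 13.5 without. Atp6v0c, a subunit of the proton pump of lysosomes, stood at 19.8 and 176 FPKM (-3.09), and at 122 and 132 without. Lgals7, a galectin gene, stood at 7.80 and 68.8 FPKM (-2.99), and at 40.04 and 23.8 without. Myo6, an unconventional myosin gene, stood at 29.4 and 141 FPKM (-2.22), and at 86.9 and 118 without. For these 4 genes the in vivo library with IL-1β was the lowest of the 4 libraries. Cth, which makes cysteine, stood at 3.05 and 20.5 FPKM (-2.40), and was lower in both arms, with 5.76 and 15.9 FPKM without IL-1β.

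What both arms shared was tested with limma on log2 of FPKM + 1, with the arm as covariate, which leaves 1 residual degree of freedom. Of 8901 genes tested, 379 were called higher in vivo (4.26%) and 29 lower (0.326%) at an adjusted p under 0.05. All 22 epithelial markers tested were among those called, with 17 of 21 stromal and 20 of 23 macrophage, neutrophil and MHC class II markers. Genes entered this test at 5 FPKM or more in at least 1 of the 4 libraries. In the same order, 1, 2 and 8 markers reached 5 FPKM at day 3 with IL-1β, and 2, 1 and 6 without. Most thus entered only through in vivo values, which favours a call as higher. The same holds for genes below that were low at day 3, such as Fosb. Among T cell lists, 5 of 30 immediate early genes were called. The limma log2 ratio was 3.37 ± 0.47 (SE) for Fos (adjusted p 0.00029), 3.49 ± 0.49 for Jun (0.00027) and 4.23 ± 0.54 for Fosb (0.000106), with Dusp1 and Zfp36 also called. Klf4, Ly6c1, Sfpi1, Etv5, Bcl6, Nrp1, Prf1, Gzmd, Ccl3 and Ccl5 were called higher as well, and Batf3 lower, at -1.58 ± 0.36 (adjusted p 0.0165).

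The groups that moved with IL-1β were mostly not called over both arms. Of 15 interferon-inducible GTPases, 42 mitosis genes, 35 replication genes and 25 sterol genes, limma called 0 each at an adjusted p under 0.05, while 5, 3, 5 and 2 of them had an unadjusted p under 0.05. It called 4 of 21 antiviral genes, Irf7, Isg15, Oasl2 and Rtp4. Since the fit averages the arms, this does not show that the arms differ, which these 4 libraries cannot test. By the 2-fold rule 133 higher genes were shared, which is 12.9% of the list with IL-1β and 76.9% of the list without. Of these, 43 stood in the other-cell lists. Shared lower genes numbered 12, which is 2.39% and 22.2% of the lists, and included Mif, a cytokine gene, at 156 FPKM in vivo and 368 at day 3 with IL-1β and 138 and 286 without, and Slc7a3, Gpt2 and Stc2. The arms share no library.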

How the data were processed

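RNA of transferred and cultured Th9 cells was poly(A)-selected, made into libraries with a NextFlex kit and sequenced on a MiSeq, per the labels' protocols. TopHat and the build mm9 are named in the submitters' processing notes. The FPKM and their bounds are as the authors deposited them. The sources used here do not give the tool that made them, the level of the intervals or the read depth. A library's table has 23700 entries, of which 285 with a status other than OK were left out. Values and bounds were summed per symbol (23091 symbols, 190 from several entries), and 309 symbols in vivo and 285 at day 3 stood above their own upper bound.

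Ratios, lists and the length trend (a lowess curve with fraction 0.3 on the longest transcript in GENCODE M21) were computed with pandas 2.3.3, statsmodels 0.14.6, numpy 2.4.6 and scipy 1.17.1 under Python 3.11.15. Figures were made with matplotlib 3.10.9. limma 3.58.1 in R 4.3.3 used Benjamini-Hochberg adjustment at 0.05. Both rules were tested on simulated data. Nothing in the labels says that samples come from separate animals or cultures, so limma's p-values measure the spread between these libraries alone. Named genes were the 15 highest and 15 lowest counted ratios above 0 in both libraries, up to 6 counted members per list with further ones that complete a statement, and any measured cytokine, transcription factor or T cell identity gene. Members named for not meeting the rule, shared lower genes and the comparison with the other day 3 library were chosen after their values were seen. The compared libraries and all 43 gene lists were chosen with earlier results of these data known. Gene coordinates are on mm9 and count from 1. The 1 h libraries were not used here. Some genes are not reported here.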

Additional observations from a re-analysis of the deposited data

Results flagged for a closer look

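There were 7 genes counted in opposite directions in the arms with and without IL-1β, and the difference between the arms was not tested. With and without IL-1β, the log2 ratio in vivo over day 3 was -2.72 and 3.14 for 1110054M08Rik, -2.20 and 2.16 for Dnajb13, and -5.18 and 4.53 for Exosc6, a gene of the RNA exosome. It was -5.40 and 1.26 for Gm7367, -4.06 and 4.62 for Oip5, a centromere gene, 4.75 and -5.23 for Rad9, a DNA damage checkpoint gene, and -3.73 and 3.43 for Yipf2. All of these except Dnajb13 were listed at 0 FPKM in at least 1 of the 4 libraries. A ratio with such a value depends on the pseudocount and is no fold change. Gm7367 without IL-1β stood above 0 at both stages, at 33.0 FPKM in vivo and 13.2 at day 3. Rad9, for example, stood at 26.0 FPKM in vivo and was listed at 0 at day 3 with IL-1β, and was listed at 0 in vivo and stood at 36.7 FPKM at day 3 without it. Dnajb13, a chaperone gene, was above 0 in all 4, at 0.758 FPKM in vivo and 7.07 at day 3 with IL-1β and at 6.11 and 0.587 without. Its low values lie under the pseudocount of 1, so its ratios depend on the pseudocount as well.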

How the results depend on the processing

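No paired analysis was possible because each group has 1 library and the labels carry no replicate numbers. The limma fit pairs libraries by arm, not by replicate. The 1032 higher genes became 621 with a pseudocount of 5, 1719 with a minimum of 1 FPKM or none, 644 with a minimum of 10 FPKM, 1614 under equal sums, and 317 when genes had to reach 5 FPKM at day 3, an alternative added after seeing the data. The 503 lower genes became 247 under equal sums. Other settings, among them equal medians, equal upper quartiles, the length trend removed and values above their own upper bound left out, kept both counts within 1.5 times. Of the 43 lists 12 had a median log2 ratio of at least 1 in size, and 7 with a pseudocount of 5. limma called 408 genes, 264 with a pseudocount of 0.1 and 82 with no minimum. Of 167 genes with the largest ratios of their lists or of all, 22 no longer met the rule with the length trend removed, 21 with a pseudocount of 5, 12 under equal sums and 2 under equal medians, and 0 changed sign under these settings. The causes were not tested. No library could be left out, since each group has 1.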
